A study of Mus musculus with 2 samples.

Results

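The p38 mitogen-activated protein kinase cascade was followed through 10 of the 31053 genes counted in mediastinal lymph node cells. The 10 genes were chosen by symbol. They are the p38 kinases Mapk14, Mapk11, Mapk12 and Mapk13, the kinases above them Map2k3, Map2k4 and Map2k6, and the kinases below them Mapkapk2, Mapkapk3 and Mapkapk5. The cells came from wild-type C57/B6J mice with ovalbumin-induced asthma. In one group (OVA) the mice had the asthma model alone, and in the other (C4) they had the same model with butyrate, a short-chain fatty acid, as the study's text gives it. Mice that were not given ovalbumin were not analysed here. Each group is 1 single-cell library of 4 pooled mice, so the spread between mice is not known, no test was made, and intervals cover counting error only. The doses and the age of the mice are not among the labels of these libraries.

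The p38 cascade carries signals of stress, cytokines and antigen receptors. The MAP2K enzymes phosphorylate p38 on a threonine and a tyrosine of its activation loop, and active p38 phosphorylates the MAPKAPK enzymes and transcription factors. Signalling runs through phosphorylation, which RNA counts do not measure: all values below are RNA levels. In macrophages the Mapk14 and Mapkapk2 products are known for stabilising cytokine transcripts, and in T cells and B cells p38 acts downstream of their receptors.

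The activation loops of the 4 p38 genes are shown because they are the site where the tiers meet, and because they show how far genes that are counted separately differ in sequence. The capitals mark the codons of the Thr-Gly-Tyr motif, and each run is the coding strand of GRCm38 read through the GENCODE M21 transcript with the longest reading frame.
Mapk14: gatgatgagatgACAGGCTACgtggctacc
Mapk11: gatgaggagatgACCGGATATgtggccaca
Mapk12: gacagtgagatgACAGGATATgtggtaacc
Mapk13: gacactgagatgACGGGCTATgtggtgacc
All 4 stretches lie in exon 7 of their transcripts. They are at chr17:28728387-28728416 on the plus strand for Mapk14, chr15:89145857-89145886 on the minus strand for Mapk11, chr15:89134667-89134696 on the minus strand for Mapk12 and chr17:28776332-28776361 on the plus strand for Mapk13. The marked threonine and tyrosine are residues 180 and 182 of the proteins from Mapk14, Mapk11 and Mapk13, and residues 183 and 185 of the protein from Mapk12. The stretches of Mapk12 and Mapk13 are identical at 26 of 30 bases, and those of Mapk14 and Mapk11 at 24 of 30. The longest run that any of the 12 pairs of genes within a tier share exactly in their transcripts is 27 bases. Mapk14 and Mapk13 are neighbours, 20890 bases apart, and Mapk11 and Mapk12 lie 1782 bases apart on the same strand, with no protein-coding gene between either pair. Exons of Mapkapk5 overlap those of Adam1a and Gm42878 on the same strand, and both of these are in the count table, so the UMIs of Mapkapk5 (unique molecular identifiers, 1 per captured transcript) are uncertain.

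After cells with over 10% mitochondrial UMIs, cells with under 200 genes and likely doublets were removed, 8774 OVA cells with a median of 5069 UMIs and 8013 C4 cells with a median of 5648 UMIs were kept. The libraries shared 25 cell barcodes. Cells were placed in lineages by their UMIs of Cd79a, Cd3e, Cd4, Cd8a, Foxp3 and Lyz2. This gave 4134 and 3889 B cells (OVA and C4), 946 and 847 Foxp3- CD4+ T cells, 1606 and 1648 CD8+ T cells, 179 and 161 Foxp3+ CD4+ T cells (placed by a UMI of Foxp3 and none of Cd8a, with or without a UMI of Cd4), 1057 and 821 other T cells with no UMI of Cd4, Cd8a or Foxp3, and only 36 and 31 Lyz2+ cells. The B gate held markers that did not set it. The summed level of Cd79b and Ms4a1 in B cells was 2586 and 2840 CPM (UMIs per 1000000 UMIs of the summed cells). In Foxp3- CD4+ T cells it was 17.4 and 20.3 CPM. The B markers not used for the gate, Cd79b and Ms4a1, stood in Foxp3- CD4+ T cells at 0.672% and 0.713% of their level in B cells, and in CD8+ T cells at 1.24% and 1.13%, which gives the level of free RNA and misplaced cells.

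In all kept cells the 10 kinases together held 6832 UMIs in OVA and 7256 in C4, or 131 and 140 CPM. A UMI of at least 1 of them was found in 48.4% of OVA cells and 53.8% of C4 cells, and in 23.0% and 23.9% when each cell was thinned to 2000 UMIs. All 10 genes had at least 1 UMI in both libraries. Single cells held few: of 4134 OVA B cells, 399 had a UMI of Mapk14 and 41 had 2 or more. The results below rest on sums over cells.

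Mapk14, which encodes p38α, was detected in every lineage. It stood at 19.9 CPM in OVA and 24.4 in C4 B cells, 28.8 and 30.1 in Foxp3- CD4+ T cells, 23.3 and 23.8 in CD8+ T cells, 29.2 and 31.0 in Foxp3+ CD4+ T cells and 26.9 and 29.6 in other T cells. B cells were below Foxp3- CD4+ T cells, with log2 ratios of -0.53 (-0.80 to -0.26) and -0.30 (-0.56 to -0.04). No neighbours in the order of the lineages were apart by their counting intervals in both libraries. In the few Lyz2+ cells it was at 51.3 CPM in OVA (29.3 to 83.3, 95% Poisson interval, 16 UMIs) and 56.8 CPM in C4 (35.6 to 86.0, 22 UMIs).

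**Figure D1:**
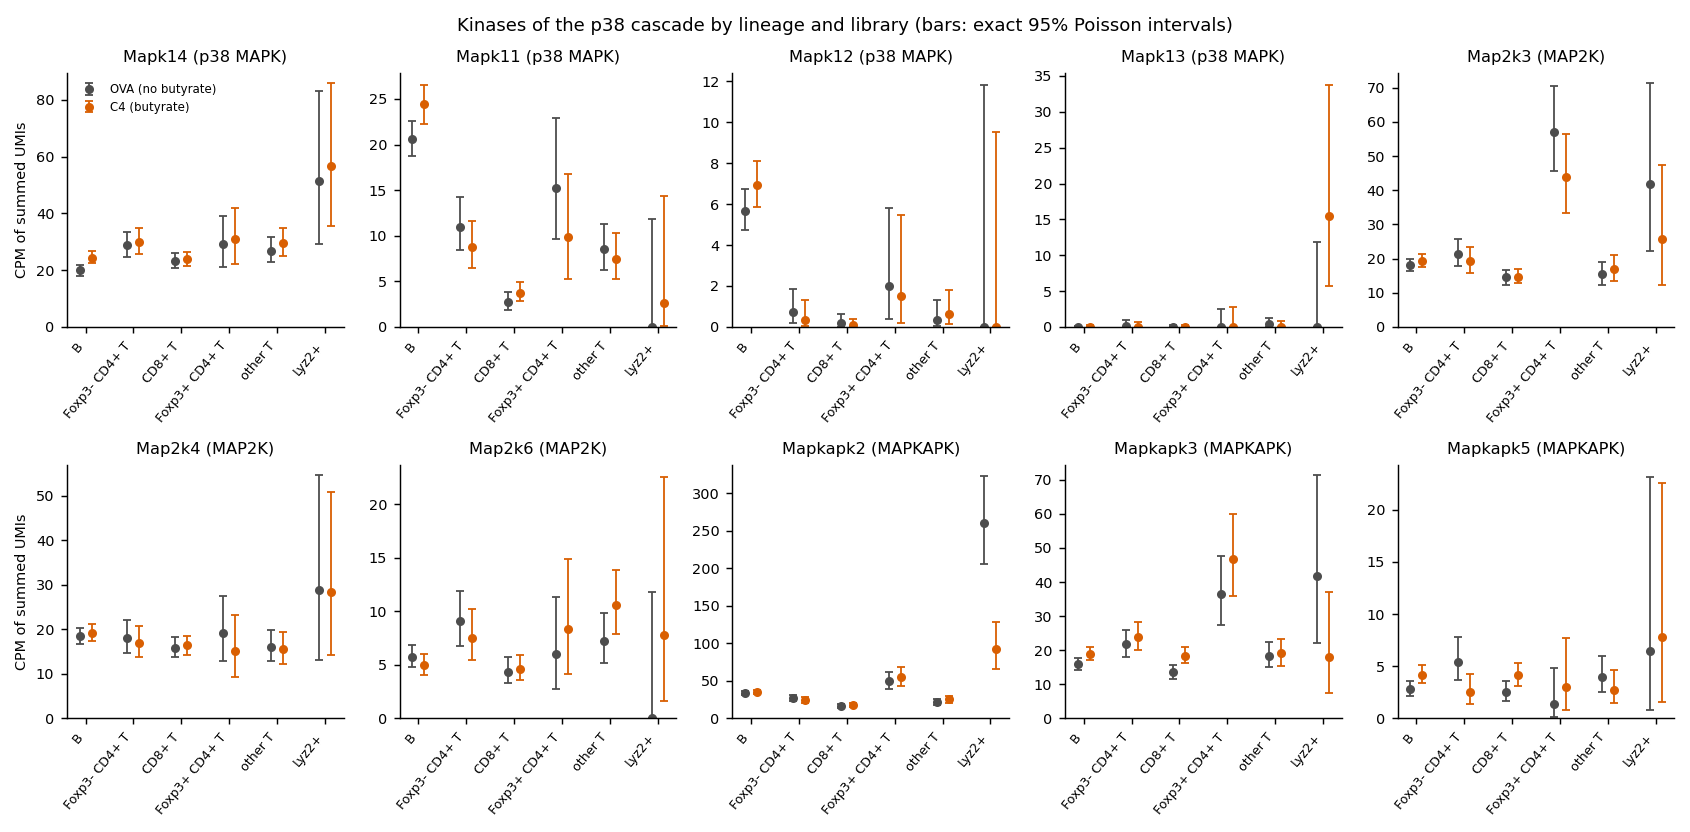
Level of each kinase in 6 lineages of both libraries, as CPM of the UMIs summed over the cells of a lineage, with exact 95% Poisson intervals as bars; each panel has its own axis from 0. Mapk11 and Mapk12 had their highest level in B cells, though in OVA their intervals overlapped those of Foxp3+ CD4+ T cells. The interval of Mapk12 in Lyz2+ cells, with 0 UMIs, reached above its B level. Mapk14, Map2k3, Map2k4, Mapkapk2, Mapkapk3 and Mapkapk5 had UMIs in every lineage of both libraries. Map2k3, Mapkapk2 and Mapkapk3 stood higher in Foxp3+ than in Foxp3- CD4+ T cells.

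Mapk11, which encodes p38β, had the widest range over the lineages, 3.63 on the log2(CPM + 1) scale. The low end of this range was the Lyz2+ cells, with upper Poisson limits of 11.8 CPM in OVA and 14.4 in C4. The rank as widest, and the choice of Mapk11 for the genes with a like pattern, thus rested on these few cells. It was highest in B cells, at 20.6 CPM in OVA (18.7 to 22.6) and 24.4 CPM in C4 (22.3 to 26.5). It was at 11.0 and 8.78 CPM in Foxp3- CD4+ T cells and at 8.50 and 7.46 in other T cells. In Foxp3+ CD4+ T cells it was at 15.2 (9.67 to 22.9) and 9.81 CPM (5.23 to 16.8). The OVA interval of Foxp3+ cells overlapped that of B cells, and the C4 interval did not. In CD8+ T cells it was at 2.69 CPM (1.84 to 3.80, 32 UMIs) and 3.77 CPM (2.83 to 4.93, 53 UMIs), and the intervals of CD8+ and other T cells did not overlap in either library. In Lyz2+ cells it had 0 UMIs in OVA and 1 in C4. The level in CD8+ T cells was 13.1% and 15.5% of that in B cells, against the 1.24% and 1.13% of the B markers there.

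Mapk12, which encodes p38γ, was found mainly in B cells. Its level there was 5.66 CPM in OVA (4.72 to 6.74, 126 UMIs) and 6.91 CPM in C4 (5.84 to 8.11, 148 UMIs). Foxp3- CD4+ T cells held 4 and 2 UMIs (0.724 and 0.359 CPM), and CD8+ T cells 2 and 1. Lyz2+ cells held 0 and 0, with upper Poisson limits of 11.8 and 9.53 CPM. These are above the B levels, so the few Lyz2+ cells could not be ranked against B cells. Foxp3+ CD4+ T cells held 3 and 2 (1.99 CPM, 0.410 to 5.81, and 1.51 CPM, 0.183 to 5.45). Their OVA interval overlapped that of B cells, and the C4 interval did not. As a share of the level in B cells, the level in Foxp3- CD4+ T cells was 12.8% and 5.19%, above the 0.672% and 0.713% of the B markers but on few UMIs. The level in CD8+ T cells was 2.97% and 1.03% of it, and was not told apart from free RNA. Only 2.88% and 3.34% of B cells had a UMI of Mapk12, and 1.47% and 1.34% after thinning.

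Mapk13, which encodes p38δ, was nearly absent, with 5 UMIs in 4 of all OVA cells and 9 UMIs in 5 of all C4 cells. Of the latter, 6 UMIs came from 2 Lyz2+ cells, and 5 of these from 1 cell. In B cells it had 0 UMIs in OVA, with an upper Poisson limit of 0.166 CPM, and 1 in C4. The floor of 3 counts that replaces a 0 in ratios was 0.135 CPM in OVA B cells.

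B and T cells differed in the make-up of their p38 UMIs. A 3′ library counts transcripts near their end and the values were not divided by length, so each share is compared between lineages and not between genes. Mapk14 gave 43.1% (40.1 to 46.2, exact binomial interval) of the p38 UMIs of OVA B cells and 43.8% (41.0 to 46.7) of C4 B cells. It gave 70.7% (64.2 to 76.5) and 76.7% (70.5 to 82.1) in Foxp3- CD4+ T cells, and 89.1% (85.1 to 92.3) and 86.1% (82.2 to 89.4) in CD8+ T cells. The intervals of B cells, Foxp3- CD4+ T cells and CD8+ T cells did not overlap in either library, though those of the T cell lineages in C4 ended and began at 82.1% and 82.2%. The share of Mapk11 ran the other way, from 44.6% and 43.7% in B cells to 27.1% and 22.4% in Foxp3- CD4+ and 10.3% and 13.7% in CD8+ T cells.

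**Figure D2:**
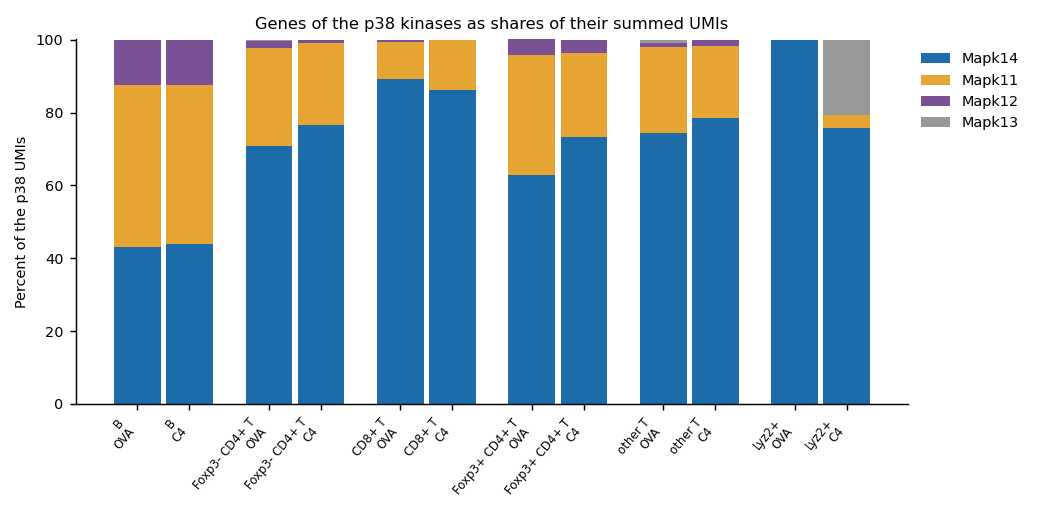
Stacked bars give Mapk14, Mapk11, Mapk12 and Mapk13 as percent of their summed UMIs in each lineage and library. The share of Mapk14 was 43.1% and 43.8% in B cells and 89.1% and 86.1% in CD8+ T cells; the bars of Lyz2+ cells rest on 16 and 29 UMIs.

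Between lineages a kinase was called where its CPM differed by at least 2-fold in the same direction in both libraries, among genes with at least 50 UMIs over both lineages in each. Of 9 kinases tested between B cells and Foxp3- CD4+ T cells, 1 was higher in B cells and 0 were lower, while 9.90% of all 9789 genes tested were higher in B cells and 7.48% were lower. That gene was Mapk12, with log2 ratios of 2.97 in OVA (1.57 to 4.86) and 4.27 in C4 (2.39 to 7.33). It passed the minimum of 50 UMIs only through B cells, where it was the higher, so the call is not taken as support. Mapk11 missed the rule with 0.90 (0.51 to 1.31) and 1.47 (1.05 to 1.93). Of 8 kinases tested between CD8+ and Foxp3- CD4+ T cells, 1 was lower in CD8+ T cells, where 2.30% of all genes were lower, and 0 were higher, where 1.64% were higher. That gene was Mapk11, with -2.04 (-2.70 to -1.40) and -1.22 (-1.81 to -0.63). In OVA CD8+ T cells held 32 of its UMIs, so it reached the minimum of 50 only with the 61 of Foxp3- CD4+ T cells, where it was the higher. In C4 CD8+ T cells alone held 53. As the rule needs both libraries, this call is not taken as support either. The 10 kinases summed were lower in CD8+ than in Foxp3- CD4+ T cells, at 93.1 against 143 CPM in OVA and 103 against 134 CPM in C4, while the median of all genes tested was -0.13 on the log2 scale in both libraries.

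**Figure D3:**
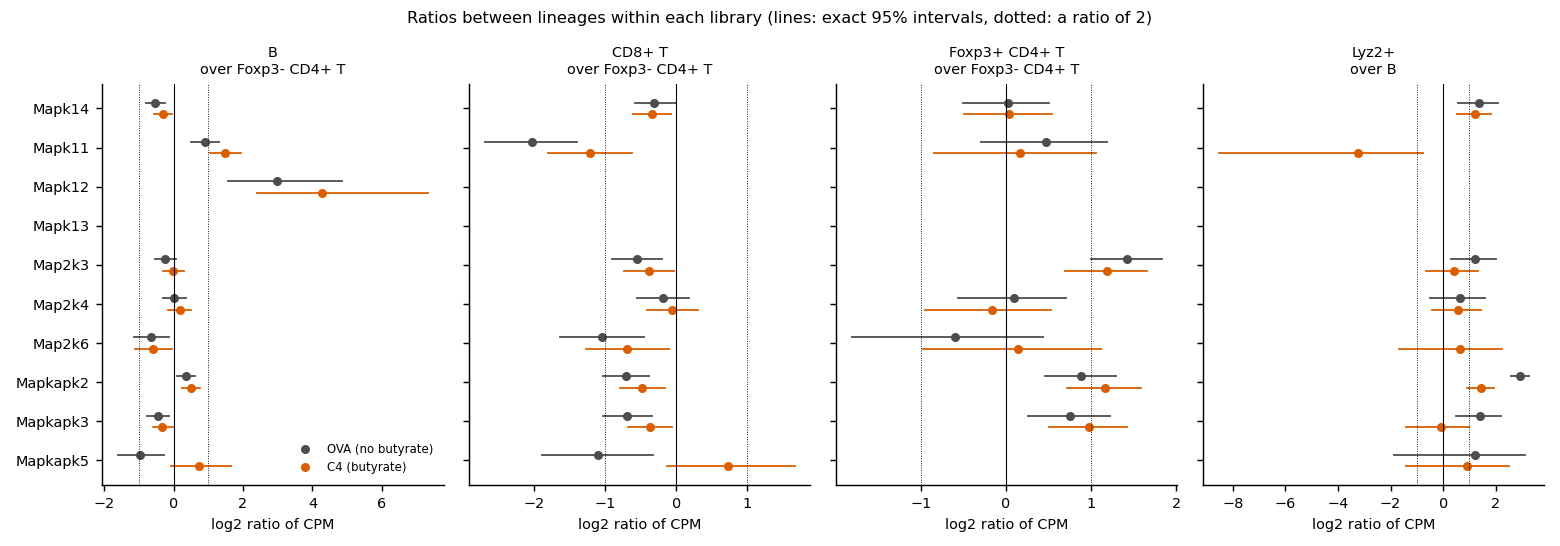
log2 ratio of CPM between 2 lineages of the same library for the kinases with at least 50 UMIs in each library, with exact 95% intervals as lines and dotted lines at a 2-fold ratio. Ratios against a lineage with 0 UMIs are left out; each panel has its own axis. Mapk11 and Mapk12 lie on the B side, and Map2k3 lies past 2-fold in Foxp3+ CD4+ T cells in both libraries.

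Of the kinases that phosphorylate p38, Map2k4, which also activates JNK, varied least. It was at 18.4 and 19.1 CPM in B cells, 18.1 and 17.0 in Foxp3- CD4+ T cells, 15.9 and 16.4 in CD8+ T cells and 19.2 and 15.1 in Foxp3+ CD4+ T cells. Its range over the 6 lineages was 0.82 on the log2(CPM + 1) scale. Map2k6, with Map2k3 the p38-directed MAP2K, was low throughout, between 4.37 and 10.6 CPM in the B and T lineages. It was lower in CD8+ than in Foxp3- CD4+ T cells, with log2 ratios of -1.05 (-1.64 to -0.46) and -0.70 (-1.28 to -0.11). Map2k3 was at 18.0 and 19.3 CPM in B cells, 21.4 and 19.4 in Foxp3- CD4+ T cells, and 14.5 and 14.7 in CD8+ T cells. It was highest in Foxp3+ CD4+ T cells, at 57.0 CPM in OVA (45.6 to 70.4, 86 UMIs) and 43.8 CPM in C4 (33.2 to 56.6, 58 UMIs). In the few Lyz2+ cells it was at 41.7 (22.2 to 71.3) and 25.8 CPM (12.4 to 47.5), and these intervals overlapped those of Foxp3+ cells.

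Among 7 kinases tested between Foxp3+ and Foxp3- CD4+ T cells, 1 was called higher in Foxp3+ cells, where 5.48% of all genes were higher, and 0 lower, where 1.49% were lower. That gene was Map2k3, with log2 ratios of 1.42 (1.0 to 1.83) and 1.18 (0.69 to 1.65). The Foxp3+ cells also held more cells in cycle. The summed level of Mki67, Top2a, Pclaf and Birc5, all 4 of which were detected in both lineages, was 1311 CPM in Foxp3+ against 202 in Foxp3- cells of OVA and 910 against 146 in C4. Cells with at least 2 UMIs of Mki67 and Top2a in sum were then left out, a setting added once the values were known. The ratio of Map2k3 went down to 0.90 (0.20 to 1.56) and 0.60 (-0.16 to 1.30), so that it was no longer called. These intervals included the ratios with all cells, 1.42 and 1.18. The part of cycling in the ratio was not tested. The call was also lost with cells thinned to 2000 UMIs (0.95 and 0.98) and with CPM computed without ribosomal, mitochondrial and immunoglobulin genes (1.20 and 0.97). The mean of per-cell shares gave 1.07 and 0.55.

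Mapkapk2 and Mapkapk3 encode MK2 and MK3, the kinases below p38 that act on proteins binding AU-rich transcripts. Mapkapk2 was at 34.0 and 34.4 CPM in B cells, 26.6 and 24.4 in Foxp3- CD4+ T cells and 16.2 and 17.5 in CD8+ T cells. In Foxp3+ CD4+ T cells it reached 49.1 CPM (38.5 to 61.6) and 54.4 CPM (42.5 to 68.4), and its intervals were apart from those of B cells, and those of B cells from those of Foxp3- CD4+ T cells, in both libraries. Mapkapk3 was at 15.9 and 19.0 CPM in B cells, 21.7 and 23.8 in Foxp3- CD4+ T cells and 13.5 and 18.4 in CD8+ T cells, and at 36.5 (27.5 to 47.5) and 46.8 CPM (35.9 to 60.0) in Foxp3+ CD4+ T cells. The ratio of Foxp3+ over Foxp3- cells was 0.88 and 1.16 for Mapkapk2 and 0.75 and 0.97 for Mapkapk3 on the log2 scale, which the 2-fold rule did not call. Without the cycling cells the ratio of Mapkapk2 was 0.88 (0.31 to 1.43) and 1.02 (0.46 to 1.55). That of Mapkapk3 was 0.85 (0.21 to 1.46) and 1.07 (0.51 to 1.60). The part of cycling in these ratios was not tested. Mapkapk5, which encodes PRAK, was low in each lineage, with 62 and 89 UMIs in B cells (2.79 and 4.15 CPM), 30 and 14 in Foxp3- CD4+ T cells (5.43 and 2.51 CPM) and 30 and 58 in CD8+ T cells (2.52 and 4.13 CPM).

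Map2k3 was also measured in the 18 OVA cells of the Foxp3- CD4+ T lineage with both Cxcr5 and Pdcd1, genes that follicular helper T cells express, at 102 CPM (59.1 to 163, 17 UMIs). Of these UMIs 7 came from 1 cell, as did 7 of 13 for Mapkapk2 and 5 of 9 for Mapkapk3, and the interval overlapped those of Foxp3+ and cycling T cells. In the 19 such cells of C4 it was at 54.8 CPM (29.2 to 93.8, 13 UMIs), and the log2 ratio between the libraries, -0.89 (-2.05 to 0.24), spanned 0. In these cells Mapkapk2 was at 77.6 and 50.6 CPM and Mapkapk3 at 53.7 and 50.6 CPM. The 4 cycle genes were at 1200 and 1270 CPM there, and their part in these levels was not tested. In cycling T cells of all kinds, Map2k3 was at 59.0 (48.6 to 71.1) and 56.4 CPM (44.7 to 70.2), against 21.4 and 19.4 CPM in Foxp3- CD4+ T cells. In cycling B cells it was at 33.3 (25.5 to 42.7) and 30.6 CPM (19.6 to 45.5), against 18.0 and 19.3 CPM in all B cells, which include them. Mapk11 was lower in the cycling B cells of OVA, at 10.2 CPM (6.14 to 15.9), and at 20.4 CPM (11.7 to 33.1) in those of C4.

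**Figure D4:**
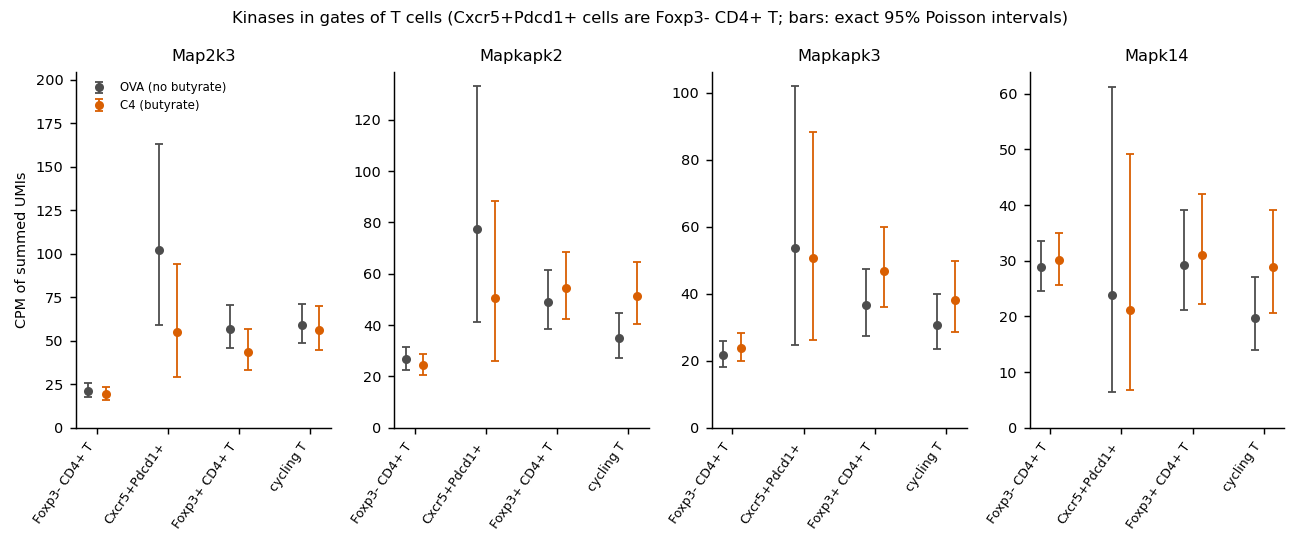
Levels of 4 kinases in Foxp3- CD4+ T cells and 3 other T cell gates, as CPM with exact 95% Poisson intervals; cells of one gate can also be in another. Map2k3 was at 21.4 and 19.4 CPM in Foxp3- CD4+ T cells and at 43.8 CPM or more in each other gate, while the intervals of Mapk14 overlapped across the gates.

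In Lyz2+ cells the myeloid markers Lyz2, Csf1r, Cd68, Fcer1g and Tyrobp were at 18639 and 15769 CPM in sum. Lyz2, which set the gate, gave 12584 and 11811 CPM of this. Csf1r and Cd68, which did not set it, were at 423 and 289 CPM and at 391 and 212 CPM. Mapkapk2 had its highest level of the 6 lineages here. Its C4 interval (65.1 to 129) overlapped that of Foxp3+ CD4+ T cells (42.5 to 68.4). Of 9 kinases tested against B cells, 2 were higher in Lyz2+ cells, where 14.1% of all genes were higher, and 1 was lower, where 7.63% were lower. Mapkapk2 was higher with log2 ratios of 2.93 (2.58 to 3.26) and 1.43 (0.91 to 1.92), Mapk14 with 1.37 (0.55 to 2.08) and 1.22 (0.53 to 1.83), and Mapk11, with 0 UMIs in OVA and 1 in C4, was the lower one. Mapk11 passed the minimum only through B cells, where it was the higher, so the call is not taken as support. Its OVA ratio is a bound set by the floor of 3 counts. For Mapk14 the C4 ratio turned to -0.16 when cells were thinned, which left 29 and 23 Lyz2+ cells. Mapkapk2 had 81 UMIs in 25 of 36 OVA cells, or 260 CPM (206 to 323), and 36 UMIs in 12 of 31 C4 cells, or 93.0 CPM (65.1 to 129). Its log2 ratio of C4 over OVA was between -2.02 and -1.09 under 10 other settings, including one without the cell with the most UMIs in each library. The Lyz2+ cells of the libraries were not alike. Flt3, a dendritic cell gene, had UMIs in 0 of 36 OVA cells and 6 of 31 C4 cells, and the neutrophil gene S100a8 in 5 and 2 cells at 1926 and 3380 CPM. The part of this make-up in the difference of Mapkapk2 was not tested.

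UMIs of all 3 tiers in the same cell were rare. At least 1 p38, 1 MAP2K and 1 MAPKAPK gene was seen together in 145 of 8774 OVA cells (1.65%, 1.40 to 1.94) and 152 of 8013 C4 cells (1.90%, 1.61 to 2.22). In Foxp3+ CD4+ T cells the share was 9.50% (5.63 to 14.8) and 7.45% (3.91 to 12.7), in Foxp3- CD4+ T cells 2.11% and 2.01%, and in the few Lyz2+ cells 13.9% (4.67 to 29.5) and 22.6% (9.59 to 41.1). After thinning to 2000 UMIs only 6 cells remained in each library, 0 of them Foxp3+, so the lineages could not be compared at equal depth.

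The comparison the study was made for was with against without butyrate. In B, Foxp3- CD4+ T and CD8+ T cells few of these genes passed the limit set below. With 1 library per condition this does not show that the levels were alike. Some wider ratios in small gates are given with those gates, such as that of Mapkapk2 in Lyz2+ cells (-1.48, -2.09 to -0.90). Others are not given. A gene with at least 50 UMIs over both libraries was called where its CPM differed by at least 1.41-fold, a log2 ratio of 0.5. In B cells 1 of 9 kinases tested was called higher in C4 and 0 lower, where 2.10% of all 10358 genes tested were higher and 3.92% lower. In Foxp3- CD4+ T cells 0 of 7 were called, where 2.76% of all genes were higher and 4.51% lower. In CD8+ T cells 1 of 8 was called higher and 0 lower, where 2.47% and 2.72% of all genes were. Both of these calls were Mapkapk5, at 0.58 (0.09 to 1.07) in B cells and 0.71 (0.05 to 1.40) in CD8+ T cells. It rests on few UMIs, and the call in B cells was lost with a pseudocount of 1 CPM (0.44) and, in a setting added once the values were known, without cycling cells and cells with a Jchain UMI (0.48, -0.02 to 1.0).

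In B cells 8 of the 9 kinases had ratios above 0, as had 6442 of all 10358 genes tested, with a median of 0.24 on the log2 scale beside 0.05 for all genes. Mapk14 was at 0.29 (0.11 to 0.48), Mapk11 at 0.24 (0.06 to 0.43) and Mapkapk3 at 0.26 (0.05 to 0.47), and the intervals of these 3, like that of Mapkapk5, lay above 0. Map2k3 was at 0.10 (-0.10 to 0.30), Map2k4 at 0.06 (-0.14 to 0.26) and Mapkapk2 at 0.02 (-0.13 to 0.17). Map2k6 was the one below 0, at -0.20 (-0.59 to 0.18). The 10 kinases summed were at 141 CPM (136 to 146) in OVA and 157 CPM (151 to 162) in C4, a log2 ratio of 0.15 (0.08 to 0.22). The B cells of OVA held more of the plasma cell markers Jchain, Sdc1, Tnfrsf17 and Xbp1, 959 against 320 CPM, and of the 4 cycle genes, 164 against 81.0 CPM. Without these cycling and Jchain+ cells the summed ratio was 0.14 (0.06 to 0.21), that of Mapk14 0.23 (0.04 to 0.43) and that of Mapk11 0.20 (0.01 to 0.39).

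In Foxp3- CD4+ T cells the median of the 7 kinases tested was -0.13, with 0.00 for all genes, and 5 of 7 were below 0, as were 4292 of all 8521 genes tested. Mapk14 was at 0.06 (-0.26 to 0.39), Mapk11 at -0.33 (-0.90 to 0.24), Map2k3 at -0.14 (-0.53 to 0.25) and Mapkapk2 at -0.13 (-0.47 to 0.22). All 7 intervals included 0. The 10 kinases summed were at 143 CPM (133 to 153) and 134 CPM (124 to 144), a log2 ratio of -0.10 (-0.24 to 0.05). In Foxp3+ CD4+ T cells the sums were 215 and 214 CPM, a log2 ratio of -0.01 (-0.25 to 0.22).

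In CD8+ T cells all 8 kinases tested were above 0, as were 4876 of all 9487 genes tested, with a median of 0.09 and 0.00 for all genes. Only the intervals of Mapkapk3 and Mapkapk5 lay above 0, and those of the other kinases included it. Mapk14, Map2k3, Map2k4, Map2k6 and Mapkapk2 also fell below 0 in at least 1 other setting. Mapkapk3 was at 13.5 CPM (11.5 to 15.7) in OVA and 18.4 CPM (16.3 to 20.8) in C4, a log2 ratio of 0.45 (0.16 to 0.75). Mapk14 was at 0.03 (-0.21 to 0.26) and Mapk11 at 0.49 (-0.17 to 1.17), a value that turned to -0.21 when cells were thinned to 2000 UMIs. The sums were 93.1 CPM (87.7 to 98.8) and 103 CPM (98.2 to 109), a log2 ratio of 0.15 (0.04 to 0.27).

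**Figure D5:**
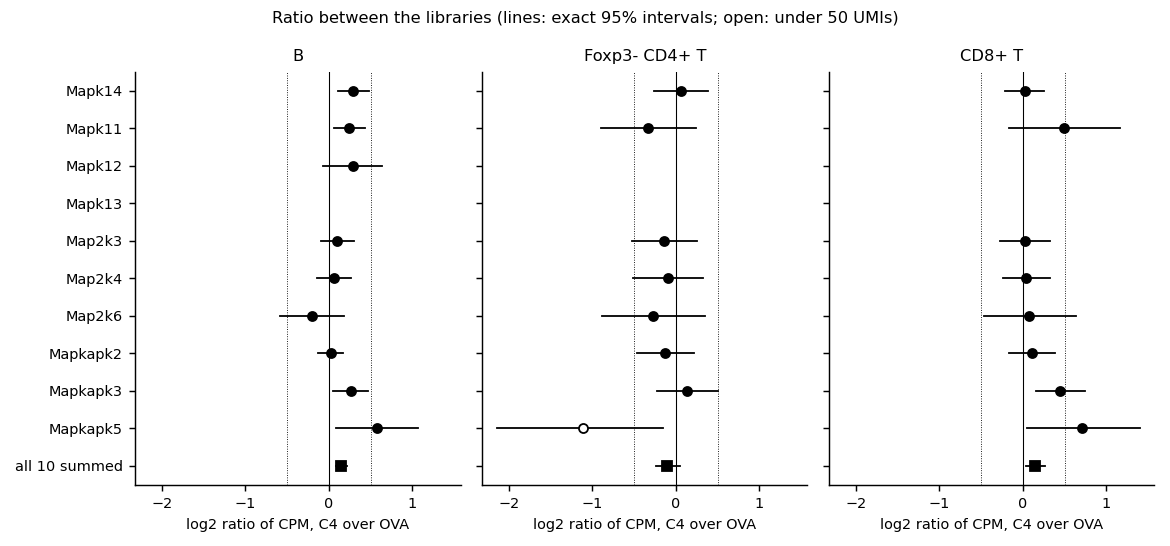
log2 ratio of CPM of C4 over OVA for each kinase and for their sum (square) in B, Foxp3- CD4+ T and CD8+ T cells, with exact 95% intervals as lines and dotted lines at the 0.5 used for a call. Filled points have at least 50 UMIs over both libraries; the open point is Mapkapk5 in Foxp3- CD4+ T cells, with 30 and 14 UMIs. Genes with fewer UMIs are not drawn.

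Genes around the cascade were taken from lists. Of all genes tested, 2.10% were called higher and 3.92% lower in C4 B cells. In Foxp3- CD4+ T cells these shares were 2.76% and 4.51%, and in CD8+ T cells 2.47% and 2.72%. The counts of the lists below are to be read beside them. Of 27 upstream kinases and adaptors, 25 were tested in B cells, and 1 was called higher and 0 lower in C4. This was Gadd45g, whose product activates the MAP3K Map3k4, at 52.4 and 76.4 CPM (log2 ratio 0.54, 0.44 to 0.65). In Foxp3- CD4+ T cells 1 of 22 was called higher, again Gadd45g, with 27 and 44 UMIs (0.69, -0.03 to 1.44), and 1 lower, its relative Gadd45a, at 14.8 and 8.07 CPM (-0.88, -1.44 to -0.34). In CD8+ T cells 1 of 24 was called, Tab3, a partner of the MAP3K Map3k7, with 30 and 61 UMIs (0.78, 0.13 to 1.46). Map3k7 itself was at 0.17, 0.32 and 0.02 in B, Foxp3- CD4+ and CD8+ T cells, and Map3k5, which encodes the stress kinase ASK1, at 0.11, -0.11 and 0.02, all with intervals that included 0. The medians of the list were 0.07, -0.01 and 0.04.

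Of 14 phosphatases that can act on MAP kinases, 12, 10 and 10 were tested, and 1 was called, Dusp4, lower in C4 B cells (14.2 and 9.85 CPM, -0.53, -0.79 to -0.27). Dusp1, which acts on p38 and JNK, was at 189 and 135 CPM in Foxp3- CD4+ T cells, a log2 ratio of -0.48 (-0.62 to -0.35), just short of a call. It was at -0.25 (-0.37 to -0.12) in CD8+ T cells and -0.08 (-0.15 to 0.00) in B cells. Dusp2 was at -0.41 (-0.51 to -0.31) and -0.29 (-0.34 to -0.23) in these T cells and at 0.17 (0.12 to 0.21) in B cells. Dusp1 is also an early gene of cell handling. The list of 16 genes that answer to handling had medians of 0.01, -0.20 and -0.21 in B, Foxp3- CD4+ T and CD8+ T cells. Its genes were mixed in direction. Of 16 tested in B cells 2 were called higher and 2 lower in C4. Of 15 tested in Foxp3- CD4+ T cells 2 were called higher and 1 lower, and 13 were below 0. Of 15 tested in CD8+ T cells 0 were called higher and 1 lower, and 12 were below 0. The part of handling in the values of Dusp1 and Dusp2 was not tested.

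Of 20 substrates, 19, 16 and 19 were tested. In B cells 1 was called, Zfp36l2, an RNA-binding protein of AU-rich elements, at 336 and 218 CPM (-0.62, -0.68 to -0.57). It was at -0.41 (-0.48 to -0.34) in Foxp3- CD4+ and -0.25 (-0.30 to -0.20) in CD8+ T cells. Its relative Zfp36 went the other way in B cells, at 262 and 368 CPM (0.49, 0.44 to 0.54), just short of a call. In CD8+ T cells 1 was called, the transcription factor gene Mef2c, on 51 and 38 UMIs (-0.67, -1.31 to -0.03). Its level there, 4.29 and 2.70 CPM, stood beside 1017 and 1102 CPM in B cells and was not told apart from free RNA. In Foxp3- CD4+ T cells 0 were called. Atf2 (-0.01, -0.18 and 0.06), Creb1 (-0.03, -0.05 and -0.05) and, where tested, Rps6ka5, which encodes the histone kinase MSK1 (-0.07 in B and -0.14 in CD8+ T cells), had intervals that included 0. Of 13 genes of the JNK and ERK cascades, 12 were tested in each lineage and 0 were called, with medians of 0.07, 0.09 and 0.02. Mapk8, which encodes JNK1, was at 0.14, -0.35 and 0.06, with intervals that included 0. The libraries differed more in the interferon response, on a list chosen with earlier results of these data known, so its size here is a description. Of 18 such genes, 14 of 17 tested in B cells, 15 of 17 in Foxp3- CD4+ T cells and 14 of 18 in CD8+ T cells were called lower in C4, with medians of -0.72, -1.07 and -0.80. The part of this difference in the values of the kinases was not tested. In another setting, cells with at least 5 UMIs of these genes after thinning to 2000 UMIs were left out. The log2 ratio of the summed kinases was then 0.16 in B, -0.09 in Foxp3- CD4+ T and 0.21 in CD8+ T cells. Single kinases moved more. Mapkapk3 went from 0.13 to -0.25 in Foxp3- CD4+ T cells and from 0.45 to 0.75 in CD8+ T cells, and Mapk11 from 0.49 to 0.78 in CD8+ T cells.

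Over the 12 values of 6 lineages in 2 libraries, the genes with the level pattern most like that of Mapk14 were Cryl1, Dusp23 and Ptov1, with Pearson correlations of log2(CPM + 1) of 0.98, 0.97 and 0.97. Those most like Mapk11 were Ppdpf, Paip2 and Rcsd1, at 0.98, 0.96 and 0.96. The 12 points share 2 libraries and differ in depth, so these values are a description.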

How the data were processed

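Single-cell 3′ libraries of mediastinal lymph node cells were deposited by the authors as raw UMI counts per gene and cell, made with Cell Ranger 6.0.1 on mm10 according to the submitters' processing notes. The annotation is not given in the sources used here. Of 9681 OVA and 8932 C4 cells with 59176459 and 58381292 UMIs, 186 and 327 were removed by quality (mitochondrial share over 10%, under 200 genes) and 721 and 592 as the highest Scrublet scores (0.8% of cells per 1000 cells, scanpy 1.11.5). UMIs were summed per gate and library in Python 3.11.15 with numpy 2.4.6, scipy 1.17.1 and pandas 2.3.3. Levels have exact Poisson intervals, shares of cells exact binomial intervals and ratios exact conditional binomial intervals, all at 95% and for counting error only. A sum of 0 was set to 3 counts in a ratio. There were no replicates, so no p-value was computed. The computation of the ratios was checked on simulated Poisson counts. These held no spread between cells or mice, so the check does not cover such spread. Feature IDs were matched to GENCODE M21 on GRCm38 (30934 of 31053). The members and lists were chosen with earlier results of these data known. Named genes were the 10 kinases and the genes called between the libraries in the upstream, phosphatase, substrate and JNK and ERK lists (at most the 6 largest per list). Called genes of the interferon and handling lists were counted but not named. Also named were 8 list genes given whatever they showed (Dusp1, Dusp2, Map3k7, Map3k5, Atf2, Creb1, Rps6ka5 and Mapk8), and the 3 genes most like Mapk14 and most like the widest-ranging kinase. Zfp36 was named as well, once its value was known. Alternatives covered the cell filters, gates, thinning, scaling, pseudocount and UMI minimum. Some genes of the planned lists and gates are not reported here.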

Additional observations from a re-analysis of the deposited data

Results flagged for a closer look

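Mapkapk5 differed between the libraries in opposite directions in the lineages. Its log2 ratio of C4 over OVA was 0.58 in B cells (62 and 89 UMIs) and 0.71 in CD8+ T cells (30 and 58 UMIs), but -1.11 in Foxp3- CD4+ T cells (30 and 14 UMIs, -2.14 to -0.15), where it had under 50 UMIs over both libraries. With 1 library per condition the difference between the lineages was not tested.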

How the results depend on the processing

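Of 852 values under other settings for 111 results, 790 stayed within the counting interval or, for counts, within 1.5 times of the value reported, and 62 did not. Of 731 log2 ratios among them, 51 had the other sign. They include Map2k6 of Foxp3+ over Foxp3- CD4+ T cells in C4 (0.14 to -1.17, thinned) and, between the libraries, Map2k6 in B cells (-0.20 to 0.12, thinned), Mapk11 in CD8+ T cells (0.49 to -0.21, thinned) and Mapkapk3 in Foxp3- CD4+ T cells (0.13 to -0.25, without interferon-response cells). The 2 of these that had been past 2-fold were ratios of Lyz2+ over B cells with cells thinned to 2000 UMIs, of Mapkapk3 in OVA (-0.02) and of Mapk14 in C4 (-0.16). The number of kinases called between the libraries in B cells was 0 with a pseudocount of 1 or 10 CPM or a minimum of 200 UMIs. In Foxp3- CD4+ T cells it was 1 with the mean of per-cell shares and 2 with no filter on low counts. In CD8+ T cells it was 2 with no doublet removal or the mean of per-cell shares, 3 without interferon-response cells, and 0 when thinned, with a pseudocount of 10 CPM or with a minimum of 200 UMIs. Between lineages it was 2 (B over Foxp3- CD4+ T) with a gate of 2 Cd3e or 5 Cd79a UMIs. It was 0 for that contrast, for CD8+ and for Foxp3+ over Foxp3- CD4+ T cells with a minimum of 200 UMIs, 0 for the latter pair when thinned, 0 for Foxp3+ cells when CPM left out ribosomal, mitochondrial and immunoglobulin genes, and 5 for Lyz2+ over B cells when thinned. Thinning and the UMI minimum test fewer genes or UMIs by construction. For the other settings the cause was not tested. Thinned, the summed kinases were at -0.27 between the libraries in Foxp3- CD4+ T cells, and in C4 at 0.44 (B), -0.24 (CD8+) and 0.93 (Foxp3+) over Foxp3- CD4+ T cells. With that scaling they were at 0.37 and 0.47 (Foxp3+ over Foxp3-) and at 1.17 and 0.37 (Lyz2+ over B) in OVA and C4. No paired analysis was possible because each condition has 1 library. For the same reason no replicate could be left out. Depth limits Mapk12, Mapk13, Mapkapk5 and the Lyz2+ cells most.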

Other observations

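Small gates outside the comparisons gave these values. In cells with Jchain and Sdc1 or Tnfrsf17, genes of plasma cells, the 10 kinases held 79 UMIs in 42 OVA cells and 50 UMIs in 11 C4 cells, or 72.2 and 134 CPM (log2 ratio 0.89, 0.35 to 1.42), but 19 of the 50 UMIs came from 1 cell. In Flt3+ cells, 14 in OVA and 30 in C4, Mapkapk2 was at 115 and 74.5 CPM. In the T cells with no UMI of Cd4, Cd8a or Foxp3, Map2k6 was at 7.23 and 10.6 CPM on 40 and 51 UMIs, a log2 ratio of 0.55 (-0.08 to 1.18) that spanned 0. In Cxcr5+Pdcd1+ cells the 10 kinases summed were at 322 and 219 CPM (-0.56, -1.13 to 0.02), on 54 and 52 UMIs. Of the 54, 21 came from 1 cell. Without thinning, the share of cells with a UMI ran the other way, 12 of 18 in OVA and 19 of 19 in C4. The cells had a median of 7050 UMIs in OVA and 9791 in C4. With cells thinned to equal depth the share ran the same way as the CPM, 7 of 18 in OVA and 5 of 19 in C4. The intervals of these thinned shares overlapped (17.3% to 64.3% and 9.15% to 51.2%). The Mapk14 level of cycling B cells was 15.0 CPM (9.99 to 21.7) in OVA and 38.2 CPM (25.8 to 54.6) in C4, on 28 and 30 UMIs in 97 and 47 cells. Map2k4 went the other way there, at 22.0 and 11.5 CPM on 41 and 9 UMIs, a log2 ratio of -0.94 (-2.17 to 0.12) that spanned 0.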
